A study of Danio rerio with 6 samples.

Results

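A set of 78 genes that were near 0 in control hepatocytes and readily counted in lcat-overexpressing hepatocytes of zebrafish larvae is described here. The members were chosen by their measured levels from the 23745 genes of the expression table. A member had a mean under 1 CPM (counts per 1e6 counts of the library) over the control libraries and a mean of 5 CPM or more over the overexpressing libraries. Another 11 rows met these thresholds and were left out by the start of their symbol, which names transporter, elongase, ponzr and cathepsin families. These 11 are slc14a2, slc27a6, slc38a5a, elovl6l, elovl7a, rhcgl1, ponzr2, ponzr3, ponzr4, ctsl.1 and ctss2.1. The same rule with the groups exchanged found 42 genes, near 0 in overexpressing and 5 CPM or more in control libraries.

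The libraries hold poly(A) RNA from 2000 liver cells each, sorted by fluorescence from larvae at 6 days post fertilisation. Group lcat OE has 3 libraries from larvae of the genotype Tg(fabp10a:lcat-T2A-mCherry; fabp10a:eGFP), in which the promoter of the liver fatty acid binding protein gene fabp10a drives lcat joined to the red reporter mCherry. Group CTL has 3 libraries from Tg(fabp10a:eGFP) larvae, and both groups share this green hepatocyte reporter. No group carries mCherry without lcat, so effects of lcat, of the red reporter and of the fish line cannot be told apart. The labels do not say whether larvae were pooled or whether replicates came from separate clutches or sorts, so the p-values measure a spread that may be technical. The gene lcat encodes lecithin-cholesterol acyltransferase, which the liver secretes and which esterifies cholesterol on lipoproteins, and the study asked which transcripts change with early fat accumulation in the liver. In lcat OE 1 to 3, lcat had 3378, 2616 and 1699 CPM, against 148, 127 and 149.9 CPM in CTL 1 to 3 (log2 fold change 4.24, SE 0.20, edgeR adjusted p = 1.35e-06), with reads of the transgene and the endogenous gene not told apart.

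Much of a hepatocyte's messenger RNA encodes plasma proteins and enzymes of lipid handling. Surface epithelia such as the skin of the larva, whose outer layer is the periderm, are known for keratins, mucins and cross-linking enzymes. Many teleost genes of innate defence, among them large TRIM and GTPase families, are known from clone or locus names only. In bulk RNA of sorted cells, a change in the number of cells of 1 type and a change in RNA per cell cannot be told apart.

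The label "switched on" holds for the rise but, for most members, not for a silent start. In CTL, 69 of the 78 genes had a count in every library, 6 had no count in 1 library, 1 had none in 2 libraries, and 2 had none in all 3. The summed CTL count had a median of 34 over the members and reached 69, while the summed count in lcat OE was 363 to 12204 with a median of 588. Members are therefore described as near 0 in CTL. Those with the fewest CTL counts cannot be told from silent at this depth, such as si:dkey-9l20.3 with 2, 1 and 2 counts in CTL 1 to 3. The median member averaged 8.05 CPM in lcat OE and 0.482 CPM in CTL. Over the 74 members with more than 3 CTL counts, the ratio of lcat OE to CTL means ran from 6.55 to 414 with a median of 18.7. The highest ratio is that of si:dkey-9l20.3 and rests on 5 summed CTL counts. The 3 lcat OE libraries lay above the 3 CTL libraries for all 78 members, against 17.3% of the 14096 genes tested, and edgeR called 77 of the 78 higher, against 16.3% of the genes tested. Both counts follow from the rule, which used the same contrast, so no p-value is given for a member. The member that was not called is LOC103908620, which is described below with its library values.

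**Figure D1:**
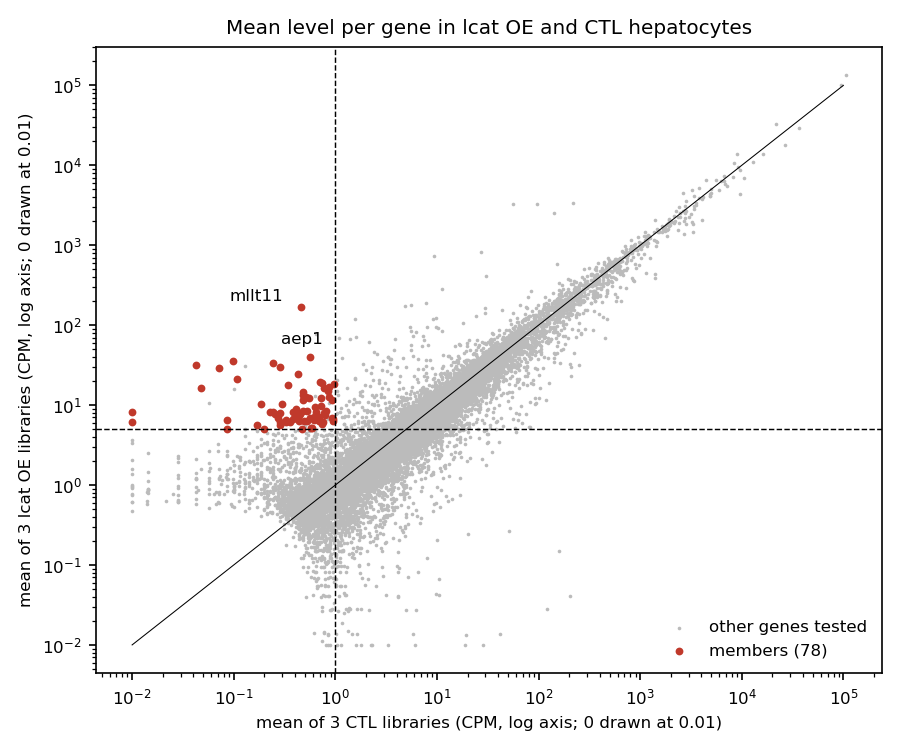
Mean CPM of every gene tested, in CTL (horizontal, log axis) and in lcat OE (vertical, log axis), with the 78 members in red and the thresholds of 1 and 5 CPM dashed. The members fill the upper left field, where mllt11 stands highest at 167 CPM in lcat OE, and grey points in that field are the 11 rows left out by symbol.

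The regulators of transcription and splicing were led by mllt11. This small protein is named from a leukaemia fusion gene and is known in mice from developing neurons. It had 181, 208 and 114 CPM in lcat OE 1 to 3, against 0.253, 0.557 and 0.556 CPM in CTL 1 to 3. The lowest lcat OE value exceeded the highest CTL value by over 100 CPM. The means were 167 ± 48.3 CPM in lcat OE and 0.455 ± 0.175 CPM in CTL (SD, n = 3 each), a 367-fold difference, and mllt11 alone held more counts than any other member. A further 7 members of this class had lower levels, with means of 7.37 to 14.9 CPM in lcat OE.

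Both forkhead transcription factor genes of the foxq1 pair are members. foxq1a had 21.0, 12.01 and 11.6 CPM in lcat OE 1 to 3, against 0.506, 1.46 and 0.599 CPM in CTL 1 to 3. foxq1b had 14.3, 7.19 and 5.47 CPM in lcat OE 1 to 3, against 0.0422, 0.857 and 0.342 CPM in CTL 1 to 3. In both genes lcat OE 1 was highest and CTL 2 was the highest control. The zinc finger gene sp8a, known for fin and limb bud outgrowth, had 14.7, 9.44 and 7.02 CPM in lcat OE, against 0.211, 0.214 and 0.128 CPM in CTL. The homeobox gene dlx3b, known in zebrafish from the border of the neural plate and the ear placode, had 8.92, 7.83 and 5.35 CPM in lcat OE, against 0.464, 0.857 and 0.556 CPM in CTL. All 3 sp8a controls were under 0.25 CPM, while the dlx3b controls reached 0.857 CPM. The ratio of means was 56.2-fold for sp8a and 11.78-fold for dlx3b.

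The remaining regulators showed the same separation at a similar level. creb3l1 encodes a membrane-bound transcription factor that mammals cleave at the Golgi, and it had 10.798, 8.52 and 3.85 CPM in lcat OE, against 0.169, 0.386 and 0.214 CPM in CTL. arid6, a gene named for its ARID DNA-binding domain, had 16.9, 9.60 and 4.87 CPM in lcat OE, against 0.0422, 0.300 and 0.556 CPM in CTL. In arid6 the 3 lcat OE libraries spread from 4.87 to 16.9 CPM. The epithelial splicing regulator gene esrp1 had 11.096, 11.2 and 6.20 CPM in lcat OE, against 0.211, 0.986 and 0.684 CPM in CTL. Its paralog esrp2 is not a member: it had 21.4, 20.1 and 15.4 CPM in lcat OE, against 15.1, 15.9 and 12.3 CPM in CTL, and the groups overlap (log2 fold change 0.48, SE 0.13, edgeR adjusted p = 0.0188).

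Genes of innate immunity and of the ubiquitin system formed a class of 10 members, with means of 5.03 to 33.9 CPM in lcat OE. The most abundant was si:dkey-202l22.6, which the RefSeq table names gvin1l2, a very large GTPase of a family induced by interferon in mammals. It had 47.9, 31.4 and 22.2 CPM in lcat OE 1 to 3, against 0.0844, 0.214 and 0.428 CPM in CTL 1 to 3. cyldb, of the CYLD deubiquitinases that restrain NF-kappaB signalling, had 29.8, 24.9 and 19.3 CPM in lcat OE, against 0.169, 0.5999 and 0.513 CPM in CTL. Both genes stood near 20 CPM or more in each lcat OE library and under 0.65 CPM in each CTL library. The inflammasome adaptor gene pycard had 20.4, 18.2 and 10.99 CPM in lcat OE, against 0.338, 1.33 and 0.642 CPM in CTL. The peptidoglycan recognition gene pglyrp5 had 14.2, 17.6 and 11.4 CPM in lcat OE, against 0.211, 0.814 and 0.428 CPM in CTL. Their CTL libraries differed, with CTL 2 the highest for both, and the ratio of means was 33.7-fold without CTL 2 instead of 21.5-fold for pycard, and 45.1-fold instead of 29.8-fold for pglyrp5.

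Among the TRIM genes, which encode ubiquitin ligases with a RING finger, btr30 and btr12 belong to the bloodthirsty-related and ftr83 to the finTRIM family of fish. btr30 had 10.5, 9.44 and 5.51 CPM in lcat OE, against 0, 1.71 and 0.727 CPM in CTL. btr12 had 9.65, 7.79 and 3.65 CPM in lcat OE, against 0.464, 0.986 and 0.599 CPM in CTL. ftr83 averaged 6.67 ± 3.37 CPM in lcat OE and 0.954 ± 0.532 CPM in CTL (SD, n = 3 each). All 3 TRIM genes were highest in lcat OE 1 and lowest in lcat OE 3, and were highest among controls in CTL 2, where each passed 0.98 CPM. Genes of these families outside the set went both ways by edgeR's adjusted p. ftr82, next to ftr83 in gene order, fell to 14.3 CPM in lcat OE, against 28.8 CPM in CTL. btr31 rose to 2.07 CPM in lcat OE, against 0.711 CPM in CTL. The superoxide-producing NADPH oxidase gene nox1 had 8.32, 4.66 and 2.11 CPM in lcat OE, against 0.169, 0.300 and 0.128 CPM in CTL. The lysosomal membrane gene lamp3 had 8.07, 4.66 and 6.00 CPM in lcat OE, against 0.675, 1.33 and 0.856 CPM in CTL. The nox1 values spread 3.95-fold within lcat OE, and its mean of 5.03 CPM was the lowest of any member. The RING finger gene rnf222 had 6.79, 4.87 and 3.73 CPM in lcat OE, against 0.552, 0.643 and 0.546 CPM in CTL. In a list of interferon response genes, 34 of 38 names were matched and 17 were tested, of which 7 fell by edgeR's adjusted p, against 16.3% of all genes tested. That list includes no member, and with 34 matched names among 23745 genes nothing is read from this.

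Cell surface and junction genes also formed a class of 10. aep1, which encodes an aerolysin-like pore-forming protein, was the second most abundant member, with 40.1, 57.2 and 23.02 CPM in lcat OE 1 to 3, against 0.464, 0.557 and 0.684 CPM in CTL 1 to 3. Its ratio of means was 70.5-fold. Counts of aep1 were not whole in the lcat OE libraries, which marks reads shared with other genes or transcripts in such estimates. The transmembrane mucin gene muc13a had 22.8, 19.1 and 10.99 CPM in lcat OE, against 0.169, 0.514 and 0.342 CPM in CTL. The occludin gene oclnb, a tight junction component, had 15.7, 10.24 and 8.88 CPM in lcat OE, against 0.464, 1.54 and 0.770 CPM in CTL. The cadherin gene cdh27 had 6.87, 6.27 and 5.27 CPM in lcat OE, against 0, 0.557 and 0.299 CPM in CTL. For muc13a and oclnb lcat OE 1 was the highest library, whereas the cdh27 values lay within 1.303-fold of each other in lcat OE.

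Surface proteins of the immunoglobulin superfamily were represented by si:zfos-1011f11.1 and vsig10. The first is named gpa33a in RefSeq, after an antigen of the mammalian gut epithelium, and had 11.14, 8.04 and 5.64 CPM in lcat OE, against 0.464, 0.986 and 0.471 CPM in CTL. vsig10 had 8.66, 5.06 and 3.45 CPM in lcat OE, against 0.506, 1.11 and 0.599 CPM in CTL. The surface glycoprotein gene cd99 had 8.07, 6.79 and 5.35 CPM in lcat OE, against 0.422, 0.686 and 0.856 CPM in CTL. These 3 genes were highest in lcat OE 1 and lowest in lcat OE 3, and none of their lcat OE values reached 12 CPM. tmem176l.3b had 7.60, 8.68 and 4.95 CPM in lcat OE, against 0.380, 0.429 and 0.471 CPM in CTL. pttg1ipa, named as an interaction partner of securin, had 16.99, 12.3 and 10.99 CPM in lcat OE, against 0.760, 0.257 and 0.428 CPM in CTL. dcst2, known in zebrafish and mice from the fusion of sperm and egg, had 8.83, 6.95 and 4.87 CPM in lcat OE, against 0.633, 1.16 and 0.984 CPM in CTL. In pttg1ipa CTL 1 was the highest control, which was so for 4 of the 78 genes.

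The 7 members of cytoskeleton and membrane traffic had means of 6.14 to 18.4 CPM in lcat OE. The SNARE gene stx11b.1 had 20.8, 20.7 and 13.8 CPM in lcat OE, against 0.760, 0.943 and 1.24 CPM in CTL. It lies closest under the CTL threshold of all members, with a mean of 0.981 CPM. The actin-severing gelsolin gene gsnb had 8.32, 11.06 and 4.55 CPM in lcat OE, against 0.253, 1.37 and 0.684 CPM in CTL. The Rab gene rab25a, of a GTPase that sorts membrane in epithelial cells, had 6.57, 10.77 and 6.37 CPM in lcat OE, against 0.0844, 0.514 and 0.257 CPM in CTL. In gsnb and rab25a the highest library was lcat OE 2, and CTL 2 was the highest control. The remaining 4 were si:dkey-17e16.17 (bicdl2l in RefSeq, of a family of adaptors for motor transport), the membrane-bending I-BAR gene baiap2l1a, the actin regulator eps8l1 and the SH3 domain gene sh3d21, with means of 12.6, 6.36, 6.14 and 8.36 CPM in lcat OE, against 0.512, 0.497, 0.753 and 0.527 CPM in CTL.

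Enzyme genes were led by fut9d, which encodes a fucosyltransferase that decorates surface glycans. It had 27.4, 33.8 and 28.1 CPM in lcat OE 1 to 3, against 0.127, 0.386 and 0.342 CPM in CTL 1 to 3, a 104-fold difference of the means. After fam129aa it had the most even lcat OE values of the set, with a highest to lowest ratio of 1.23. A pair of other members also acts on sugars. cmah, which hydroxylates sialic acid, had 7.60, 11.13 and 6.65 CPM in lcat OE, against 0.422, 0.5999 and 0.428 CPM in CTL. gfpt2, of the enzyme that opens the hexosamine pathway, had 8.36, 7.23 and 3.61 CPM in lcat OE, against 0.295, 0.986 and 0.770 CPM in CTL. In cmah lcat OE 2 was highest, and in gfpt2 lcat OE 1.

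Enzymes of lipids and proteins complete this class. ch25hl1.1, a cholesterol 25-hydroxylase-like gene, had 8.92, 6.91 and 3.69 CPM in lcat OE, against 0.0422, 0.0429 and 0.171 CPM in CTL, and its CTL libraries held 1, 1 and 4 counts. The flippase gene atp8b1, whose human ortholog is mutated in an inherited form of cholestasis, had 6.53, 8.36 and 3.97 CPM in lcat OE, against 0.211, 0.686 and 0.428 CPM in CTL. Both were lowest among lcat OE libraries in lcat OE 3. The calpain protease gene capn9 had 8.83, 9.16 and 4.70 CPM in lcat OE, against 0.295, 0.900 and 1.198 CPM in CTL. zgc:92480, named capn2l in RefSeq, is a second calpain gene and had 8.07, 7.95 and 4.58 CPM in lcat OE, against 0.380, 0.943 and 0.385 CPM in CTL. The transglutaminase gene tgm1l4, of a family that cross-links proteins in the mammalian cornified envelope, had 2.82, 9.12 and 3.28 CPM in lcat OE, against 0.127, 0.129 and 0 CPM in CTL. It rested on lcat OE 2: without that library its lcat OE mean was 3.05 CPM instead of 5.07, and it would not be a member.

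Signalling and transport genes had low levels, with 7 members at means of 5.09 to 8.27 CPM in lcat OE. The brake on G protein signalling rgs2 had 9.39, 4.94 and 2.68 CPM in lcat OE, against 0, 0.386 and 0.128 CPM in CTL. The adhesion receptor gene adgrf6 had 7.60, 3.98 and 3.69 CPM in lcat OE, against 0.253, 0.900 and 0.257 CPM in CTL. Within lcat OE, rgs2 spread 3.51-fold, among the widest of the set, and CTL 1 had no rgs2 count. fam129aa, named niban1a in RefSeq, had 8.75, 8.64 and 7.42 CPM in lcat OE, against 0.0844, 0.129 and 0.513 CPM in CTL. It was the most even member in lcat OE, with a highest to lowest ratio of 1.18. The Ral exchange factor gene rgl3a, the kinase gene styk1, zgc:158404 (plekhs1.3, named for its pleckstrin homology domain) and zgc:158225 had means of 5.68, 7.34, 6.19 and 7.01 CPM in lcat OE, against 0.285, 0.640, 0.356 and 0.397 CPM in CTL. RefSeq names zgc:158225 slc6a7, of the proline transporters. Genes were left out by their deposited symbol only, so this slc gene stayed in the set.

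**Figure D2:**
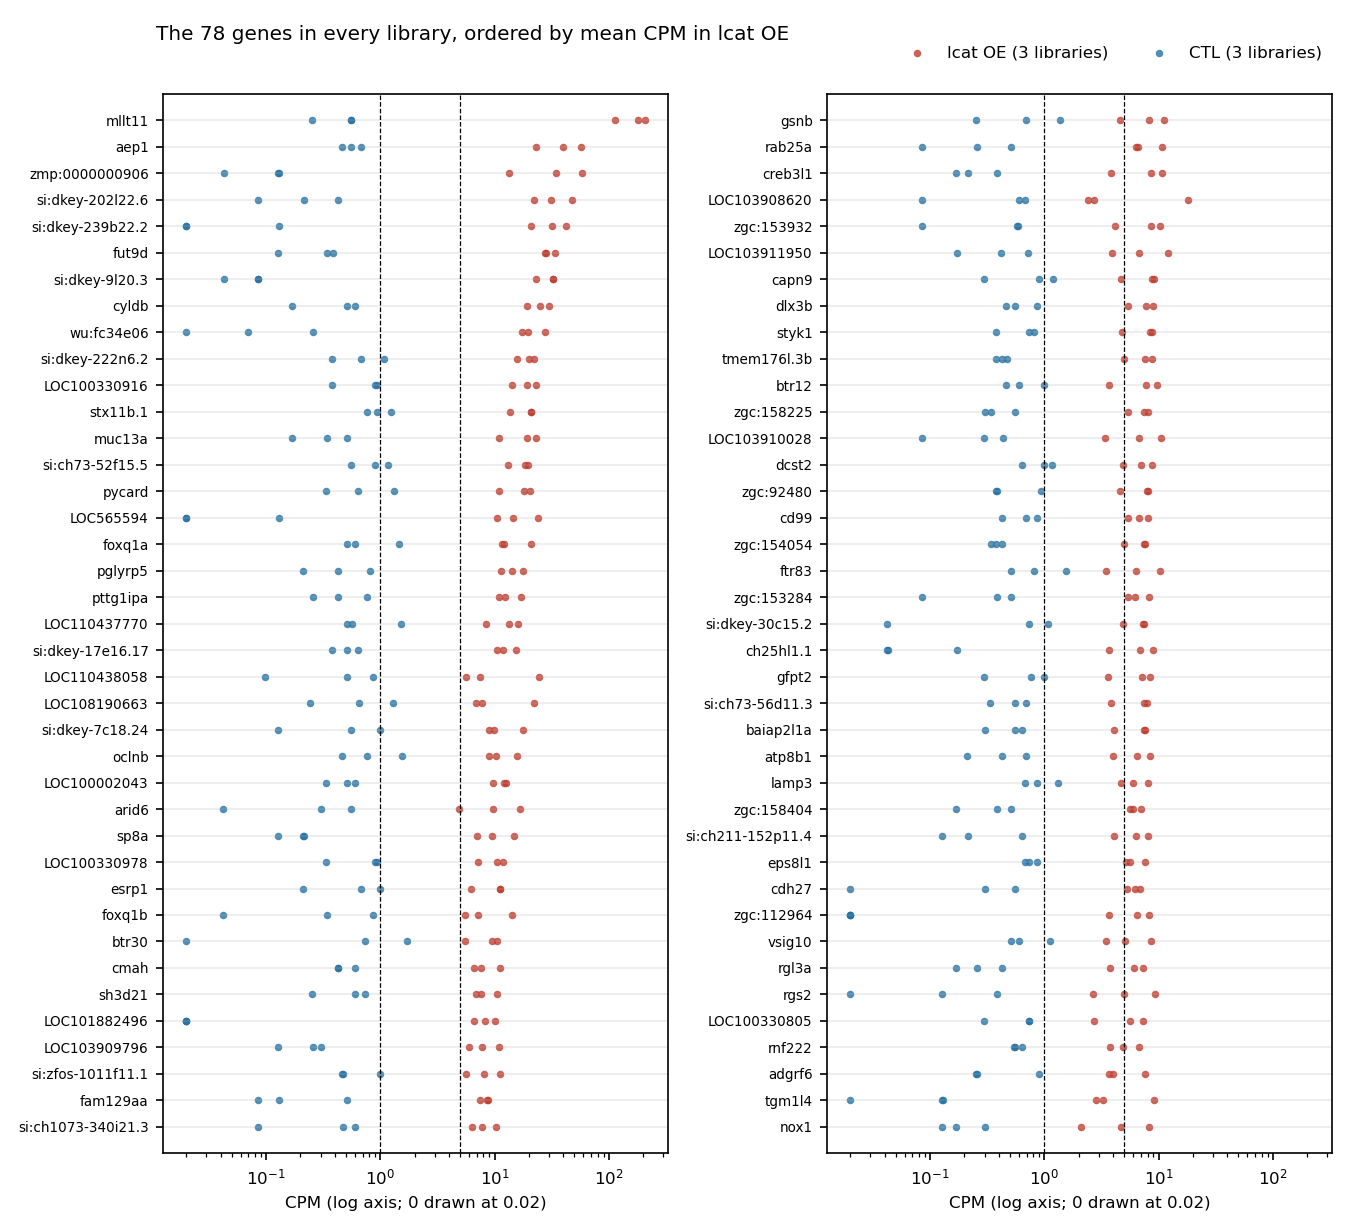
CPM of the 78 genes (log axis, 0 drawn at 0.02) in each lcat OE library (red) and each CTL library (blue), with the thresholds of 1 and 5 CPM dashed. Red and blue points do not overlap for any gene, and 41 genes have a red point under 5 CPM or a blue point at 1 CPM or above.

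The remaining 28 members have clone, locus or project names, 13 of them LOC names, and include some of the widest differences. An uncharacterised gene with a zebrafish mutation project name, NCBI gene ID 100334082, had 58.7, 34.8 and 13.3 CPM in lcat OE 1 to 3, against 0.127, 0.129 and 0.0428 CPM in CTL 1 to 3. si:dkey-239b22.2 had 42.3, 31.7 and 20.7 CPM in lcat OE, against 0, 0.129 and 0 CPM in CTL. si:dkey-9l20.3 had 32.4, 32.8 and 22.8 CPM in lcat OE, against 0.0844, 0.0429 and 0.0856 CPM in CTL. All 3 had at most 3 counts in any CTL library. With 3 counts in CTL, all in CTL 2, si:dkey-239b22.2 had a count ratio of lcat OE to CTL of 736 (exact 95% counting interval 252 to 3574), which covers counting error only. The ratio of means was 358-fold for gene 100334082 and 414-fold for si:dkey-9l20.3. These 2 ratios rest on 7 and 5 summed CTL counts and are therefore imprecise.

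No CTL read was counted for LOC101882496 or zgc:112964. LOC101882496 had 8.30, 10.01 and 6.61 CPM in lcat OE 1 to 3 and was at least 65.0-fold higher than CTL. zgc:112964 had 8.24, 6.43 and 3.65 CPM and was at least 47.8-fold higher. Both bounds take CTL at a floor of 3 counts per library. Neither gene reached a mean of 10 CPM, so no member was both absent from CTL and above that level.

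The next 4 uncharacterised members are among those that were counted in every CTL library. si:dkey-222n6.2 had 22.4, 19.9 and 15.6 CPM in lcat OE, against 0.380, 1.07 and 0.684 CPM in CTL. si:ch73-52f15.5 had 19.5, 18.4 and 13.1 CPM in lcat OE, against 0.549, 1.16 and 0.898 CPM in CTL. si:dkey-7c18.24 had 9.86, 17.8 and 8.92 CPM in lcat OE, against 0.127, 0.986 and 0.556 CPM in CTL. In these 3 genes lcat OE 3 was lowest, and si:dkey-7c18.24 was highest in lcat OE 2. LOC103908620 stood apart in its lcat OE libraries, with 57, 448 and 67 counts in lcat OE 1 to 3, against 16, 14 and 2 counts in CTL 1 to 3. This was the widest spread of the set, 7.40-fold, and without lcat OE 2 its lcat OE mean was 2.57 CPM instead of 7.72. The ratio of means was then 5.68-fold instead of 17.01-fold.

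Some members may not be independent of each other, since estimated counts can divide reads between like genes. Of the 78 genes, 17 had a count that was not whole in at least 1 library, compared with 18.04% of all genes. The counts of wu:fc34e06 and LOC565594 added up to whole numbers in all 5 libraries in which they were fractional (tolerance 0.015). wu:fc34e06 had 27.6, 19.5 and 17.3 CPM in lcat OE, against 0.0692, 0 and 0.256 CPM in CTL. LOC565594 had 24.1, 14.4 and 10.6 CPM in lcat OE, against 0.0152, 0 and 0.129 CPM in CTL. Their sum was 51.7, 33.9 and 27.9 CPM in lcat OE 1 to 3, against 0.0844, 0 and 0.385 CPM in CTL 1 to 3, in which the groups do not overlap either. LOC103911950 and LOC103910028 added up to whole numbers in 4 of 6 libraries, and their sum was 22.601, 13.5 and 7.30 CPM in lcat OE 1 to 3, against 0.506, 0.471 and 1.16 CPM in CTL 1 to 3.

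Both members that RefSeq lists as long non-coding RNAs also had fractional counts, in all 6 libraries. LOC110438058 had 24.3, 7.42 and 5.57 CPM in lcat OE, against 0.0979, 0.862 and 0.510 CPM in CTL. LOC108190663 had 22.2, 7.72 and 6.89 CPM in lcat OE, against 0.244, 1.28 and 0.649 CPM in CTL. In each, lcat OE 1 stood far above the other libraries of its group and CTL 2 was the highest control. The ratio of means for LOC110438058 was 25.3-fold, 13.3-fold without lcat OE 1 and 40.9-fold without CTL 2. For LOC108190663 it was 16.95-fold, 10.1-fold without lcat OE 1 and 27.5-fold without CTL 2. Of the other members, 73 are protein-coding in RefSeq and 3 have no entry there.

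Levels per transcript length changed the order of the members. In TPM (transcript levels scaled by length, deposited by the authors), mllt11 stayed first with 121 ± 35.1 TPM in lcat OE and 0.350 ± 0.139 TPM in CTL (SD, n = 3 each). It was followed by aep1 at 23.2, LOC103908620 at 22.0, pycard at 19.1 and zgc:153284 at 19.1 TPM in lcat OE. The rank of LOC103908620 rested on lcat OE 2, with 7.03, 51.3 and 7.81 TPM in lcat OE 1 to 3, against 1.99, 1.77 and 0.270 TPM in CTL 1 to 3. zgc:153284, a gene of unstated function, ranked 58th by CPM, with 6.19, 8.196 and 5.43 CPM in lcat OE, against 0.0844, 0.386 and 0.513 CPM in CTL. The effective length implied by the deposited counts and FPKM values was 278 bases for zgc:153284 and 281 bases for LOC103908620, against a median of 1980 bases over the members. At the other end, si:dkey-9l20.3, LOC100330916 and adgrf6 had implied lengths of 37716, 39429 and 24604 bases and were the only members under 1 TPM in lcat OE, at 0.630, 0.387 and 0.167 TPM. The median member had 3.46 TPM in lcat OE and 0.212 TPM in CTL, and 26 of the 78 had 5 TPM or more in lcat OE.

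The members varied together across the lcat OE libraries. lcat OE 3 was the lowest of its group for 73 of the 78 genes, compared with 57.5% of the 14096 genes tested. lcat OE 1 was the highest for 55 members, lcat OE 2 for 23 and lcat OE 3 for 0. For the highest library no share over all genes tested is given, so this is not read as particular to the members. Relative to the mean of the 3 libraries, the median member stood at 1.23 in lcat OE 1, 1.07 in lcat OE 2 and 0.678 in lcat OE 3, where the median of all genes tested stood at 1.07, 1.03 and 0.890. With TMM-scaled library sizes, an alternative chosen after the data were seen, lcat OE 3 was lowest for 59 members, compared with 35.4% of genes tested. In CPM without TMM scaling, the 2216 other genes called higher had medians of 1.09, 1.06 and 0.830, and 80.1% of them were lowest in lcat OE 3. No test was made of these differences.

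Many members ranked the lcat OE libraries as lcat did. lcat was highest in lcat OE 1 and lowest in lcat OE 3, and 53 members had the same order of libraries. The median of all genes tested also fell in this order, at 1.07, 1.03 and 0.890 of the lcat OE mean in lcat OE 1 to 3. A further 20 members had the order lcat OE 2, 1, 3. That is the order of the summed epidermal and periderm markers, which made up 1.43, 1.74 and 1.01% of counts in lcat OE 1 to 3, against 0.105, 0.193 and 0.143% in CTL 1 to 3. The most abundant genes weigh most in this sum, and single markers of the list differed in order. For example, cyt1l had 3438, 3948 and 2352 CPM in lcat OE 1 to 3, whereas epcam had 172, 99.4 and 74.2 CPM, the order of lcat. The summed members made up 0.126, 0.114 and 0.0711% of counts in lcat OE 1 to 3, against 0.00219, 0.00521 and 0.00388% in CTL 1 to 3. In CTL the highest library was CTL 2 for 51 members, CTL 3 for 21 and CTL 1 for 4, with 2 members at 0 throughout. CTL 2 was also the highest and CTL 1 the lowest in summed epidermal markers. Other lists had these orders too. Exocrine pancreas markers made up 0.0910, 0.221 and 0.107% of counts in CTL 1 to 3. In lcat OE 1 to 3, mucous cell markers made up 0.0116, 0.0220 and 0.00774%. Ionocyte markers had the order of lcat, with 0.0886, 0.0778 and 0.0697%. Further lists differed, such as the hepatocyte list, at 36.8, 34.8 and 35.9% in CTL 1 to 3. No share over all genes tested is given for these library orders in lcat OE or CTL. They are therefore not read as particular to the members. With 3 libraries per group, the part of the lcat level or of the epidermal share in the members' levels was not tested.

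**Figure D3:**
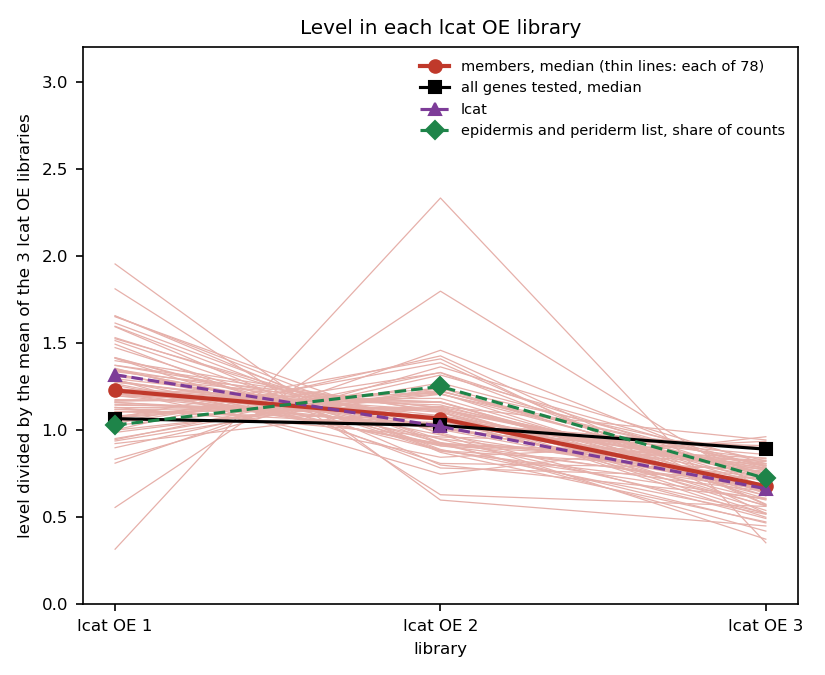
Level of each member (thin lines), the median member, the median of all genes tested, lcat, and the summed share of the epidermis and periderm list in each lcat OE library, each divided by its mean over the 3 libraries. The median member is at 0.678 in lcat OE 3, below the median of all genes tested at 0.890.

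Within lcat OE, the highest library exceeded the lowest by a median of 1.85-fold over the members. For 48 members this ratio was under 2, and for 10 it was 3 or more. The most even members were fam129aa, fut9d, zgc:158404, cdh27 and LOC100002043, at ratios of 1.18 to 1.32. The widest were LOC103908620, gene 100334082, LOC110438058, nox1 and rgs2, at 7.40 to 3.51. In 37 of the 78 genes every CTL library was under 1 CPM and every lcat OE library at 5 CPM or more. The ratio of means moved by over 1.5 times without 1 library for 25 members, most often without CTL 2 (17 members) or CTL 3 (6 members).

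The sorted cells carried hepatocyte markers in both groups. The 39 hepatocyte genes made up 37.8, 38.7 and 39.04% of counts in lcat OE 1 to 3, against 36.8, 34.8 and 35.9% in CTL 1 to 3, with 4 of 39 called higher and 4 lower, against 16.3% of all genes tested in each direction. No member is on that list. The rule admits only genes under 1 CPM in CTL, so abundant hepatocyte genes could not be members, and nothing is read from this. Members on the epidermis and periderm list were aep1, esrp1 and capn9. No symbol starting krt or cldn met both thresholds, so the rule's exclusions by symbol do not change this count. On other lists, rhcgl1 (ionocyte) and ctss2.1 (macrophage) met both thresholds and were left out by symbol. In the epidermis and periderm list 61 of 63 names were matched and 55 were tested. Of these, 41 rose and 6 fell by edgeR's adjusted p, against 16.3% of all genes tested in each direction. Their median log2 fold change was 2.22, against -0.02 over all genes tested. Only krt93 was at 0 in lcat OE, and no gene of the list was at 0 in CTL. The part of epidermal cells in the members' levels was not tested.

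Keratins were found among both the epidermal genes that rose and those that fell. The keratin gene krt4 averaged 3416 ± 1128 CPM in lcat OE and 218 ± 103 CPM in CTL, and the type I keratin gene cyt1 averaged 3275 ± 808 CPM in lcat OE and 97.6 ± 38.6 CPM in CTL (SD, n = 3 each; log2 fold change 4.06, SE 0.41, edgeR adjusted p = 0.00111 for krt4 and log2 fold change 5.16, SE 0.35, edgeR adjusted p = 0.000119 for cyt1). The cell envelope genes evpla and scel had 17.6 and 55.4 CPM in lcat OE, against 2.21 and 7.12 CPM in CTL. grhl3, a regulator of the periderm, had 2.84 CPM in lcat OE and 0.228 CPM in CTL, under the level that would make it a member. By contrast tp63, the regulator of basal keratinocytes, had 1.07, 0.884 and 0.324 CPM in lcat OE, against 1.18, 1.80 and 1.58 CPM in CTL (log2 fold change -0.93, SE 0.39, edgeR adjusted p = 0.0947). The 6 genes that fell included the keratins krt1-19d, krt94 and krt92, which had 3.49, 3.19 and 266 CPM in lcat OE, against 40.8, 15.4 and 475 CPM in CTL. The claudin gene cldni fell to 3.96 CPM in lcat OE, against 8.03 CPM in CTL. The E-cadherin gene cdh1 fell to 13.04 CPM in lcat OE, against 19.8 CPM in CTL (log2 fold change -0.51, SE 0.13, edgeR adjusted p = 0.0117).

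Counts on lists of other cell types are read against the 16.3% of all genes tested that were called in each direction. Among ionocyte markers 5 of 14 tested rose and 3 fell. The ammonium transporter genes rhcga, rhcgl1 and rhbg rose, with 189, 76.8 and 56.3 CPM in lcat OE, against 7.78, 0.641 and 8.14 CPM in CTL, as did atp6v0ca and atp2b1a. The regulator foxi1 fell to 0.193 CPM in lcat OE, against 1.05 CPM in CTL, and ca2 and atp1a1a.1 also fell. The ionocyte regulators foxi3a and foxi3b were not tested, with 0.233 and 0.0688 CPM in lcat OE, against 0 and 0.0281 CPM in CTL. Of macrophage markers 8 of 15 rose and 1 fell, and their share was 0.00471, 0.00465 and 0.00576% of counts in lcat OE 1 to 3, against 0.00241, 0.00393 and 0.00246% in CTL 1 to 3. Of mucous cell markers 3 of 6 tested rose. Their list's summed share was on average lower in lcat OE, at 0.0138% of counts against 0.0204% in CTL, with overlapping libraries. Of neural and photoreceptor markers 16 of 24 fell, of exocrine pancreas markers 10 of 25 fell, and of pigment cell markers 1 of 15 rose and 11 fell. The share of counts was on average higher in lcat OE for 5 of the 22 lists.

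**Figure D4:**
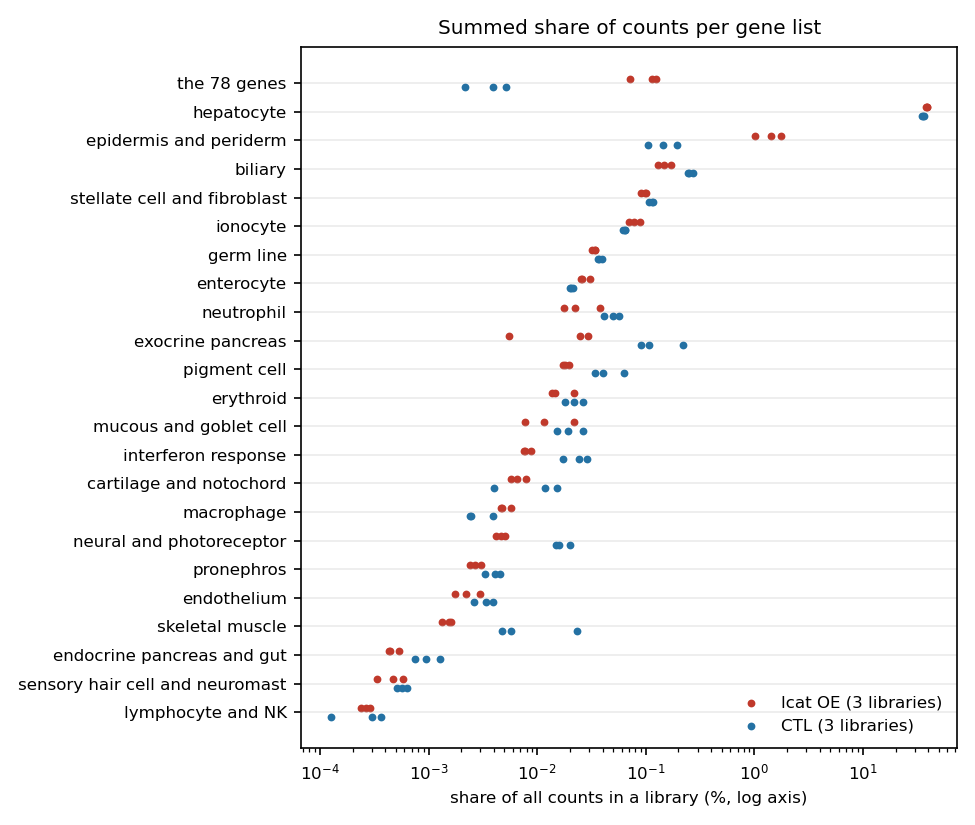
Summed share of all counts (percent, log axis) of the 78 genes and of each of the 22 lists in the lcat OE (red) and CTL (blue) libraries. The epidermis and periderm list lies at 1.01% to 1.74% in lcat OE and 0.105% to 0.193% in CTL, and the 78 genes at 0.0711% to 0.126% in lcat OE and 0.00219% to 0.00521% in CTL.

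The rule cuts a continuous range of levels. Just inside the lcat OE threshold were nox1, tgm1l4 and adgrf6, with means of 5.03, 5.07 and 5.09 CPM. Just outside it were myh14, itpka and tmem54a, with 4.94, 4.92 and 4.82 CPM in lcat OE and 0.768, 0.910 and 0.426 CPM in CTL. Just inside the CTL threshold were stx11b.1, ftr83 and lamp3, with CTL means of 0.981, 0.954 and 0.953 CPM. Just outside it were zgc:171566, klf5l and zgc:163030, with 7.67, 15.1 and 20.3 CPM in lcat OE and 1.01, 1.04 and 1.04 CPM in CTL.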

How the data were processed

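The authors deposited 1 table of 23745 genes. Its read count columns are expected counts deposited by the authors, of which 10.77% to 11.80% per library are not whole. For build GRCz11, RSEM 1.3.1, Bowtie2 2.3.4.3, HISAT and DESeq2 1.4.5 are listed per the submitters' processing notes, with no role or order. The labels' protocols name no step that marks strand, so overlapping antisense genes cannot be told apart. TPM values deposited by the authors were used for levels per length, and deposited FPKM values only for the implied effective length (counts divided by FPKM and library total). Deposited normalized counts are a signal, the counts rounded up and divided by 1 factor per library, and were not used.

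Total counts were 23431234 to 24890856 in lcat OE and 23336591 to 23695610 in CTL. Counts of replicate pairs differed by more than sampling (chi-square over its degrees of freedom, 10.5 to 33.2). CPM for the rule and the text is the count over the library total. Expected counts were rounded and compared by the quasi-likelihood test of edgeR 4.0.16 (R 4.3.3; TMM scaling, filterByExpr, robust dispersion, no covariate, two-sided), with Benjamini-Hochberg adjustment over 14096 genes and a threshold of 0.05. SE is the absolute log2 fold change over the square root of F. Intervals are exact (Clopper-Pearson); without molecular identifiers PCR copies count as reads, so intervals and floors cover counting error only.

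The members, the role classes and the 22 lists were chosen with earlier results of these data known, and the role classes after the values were seen. Of the list names, 499 matched by symbol, 33 by a RefSeq name or synonym and 37 not at all. RefSeq (assembly GRCz12tu) held 75 of the 78 members and served for names and gene order only. Named genes are the most abundant members by CPM and TPM, those without CTL counts, on a list, next to another member, at a threshold, with the widest or most even lcat OE values, or with a stated role. Genes named outside the set were chosen after their values were seen. These are paralogs (esrp2, ftr82 and btr31), neighbours of close members, and the named genes of the epidermal and ionocyte lists. The scripts were tested on simulated data. Alternatives used DESeq2 1.42.0, limma 3.58.1 on log2(TPM + 1), other scalings, filters and rules, a replicate block and left-out libraries. Sequences were not used here.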

Additional observations from a re-analysis of the deposited data

How the results depend on the processing

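The number of members depends on the rule. It was 42 with the same thresholds on deposited TPM, of which 25 are among the 78; 16 with under 0.5 CPM in CTL and 10 CPM or more in lcat OE; 134 with under 2 CPM in CTL; 37 where every library had to pass; and 82 with TMM-scaled library sizes, which kept all 78. Leaving out each library gave 68 to 90, and 2 against 2 libraries without CTL 1 and lcat OE 3, chosen after the data were seen, gave 78. Without lcat OE 1 the members adgrf6, ftr83, nox1, rgl3a, rgs2, rnf222 and vsig10 left the set, and without lcat OE 2 LOC100330805, LOC103908620 and tgm1l4. Without CTL 1, 11 members left it, namely LOC110437770, btr30, capn9, dcst2, foxq1a, ftr83, gsnb, lamp3, oclnb, si:ch73-52f15.5 and stx11b.1. The mirrored rule gave 42 genes, 14 where every library had to pass, and 34 to 57 without each library.

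Over all genes edgeR called 2293 higher and 2303 lower. With library totals the calls were 1672 and 2639, so the split depends on scaling. With at least 5 CPM in 3 libraries they were 1335 and 1369, since fewer genes were tested, and 46 members were called. On log2(TPM + 1) limma called 1245 higher and 2966 lower, and the cause was not tested. Members called higher were 76 to 78 with every setting other than the 5 CPM filter, against 16.3% of all genes tested in the main fit. These counts follow from the rule, which used the same contrast, and are not read as stability. How many members the 5 CPM filter kept is not given. lcat stayed higher with every setting, with log2 fold changes of 4.02 to 4.44. Without each library 1773 to 2441 genes were called higher and 1740 to 2253 lower. Members held 0.0527% of summed TPM in lcat OE and 0.00208% in CTL, against 0.104% and 0.00376% of counts. Replicate numbers did not pair the libraries, with correlations of -0.05, -0.03 and 0.02 between equal numbers. With the replicate block 2040 genes were called higher, 2152 lower and 77 members higher, and the lcat log2 fold change was 4.22. A gene under about 3 counts per library cannot be told from 0 at this depth.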

Other observations

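The genes that lie next to the members were read from the gene order of the RefSeq assembly GRCz12tu, in which 75 members could be placed among the genes of the table. A single pair of members was directly adjacent, LOC100002043 and si:ch1073-340i21.3. LOC100002043 had 12.7, 12.2 and 9.61 CPM in lcat OE, against 0.338, 0.5999 and 0.513 CPM in CTL, and si:ch1073-340i21.3 had 7.72, 10.3 and 6.33 CPM in lcat OE, against 0.0844, 0.5999 and 0.471 CPM in CTL. With at most 4 genes in between, rab25a and mllt11 (2 genes between) and stx11b.1 and foxq1b (3 genes between) were also close to each other.

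The members had 148 direct neighbours that are not members, of which the low-count filter kept 91. Of these 91, 27 (29.7%) were called higher and 10 (10.99%) lower by edgeR's adjusted p, against 16.3% of all genes tested in each direction, and their median log2 fold change was 0.14, against -0.02. Whether reads or regulatory sequence are shared between neighbours was not tested.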
